A study of Bos taurus with 8 samples.

Results

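Myoglobin (MB) and 3 further globin genes, beta globin (HBB), alpha globin (HBA) and cytoglobin (CYGB), were followed in the muscle of bulls from 2 marbled breeds and 1 lean breed. A gene was taken up where the transcript accession of a non-control probe matched its RefSeq entry, and its brightest probe was to represent it. Of the 4 listed genes, 3 had a probe, among 7788 genes named on the array, and all 3 had a single probe printed as 2 spots, so no gene had probes to choose between. Probe brightness was the measured value that probes were to be chosen by, and breed ratios played no role in the matching. The gene list itself was drawn up with earlier results of these data in view. CYGB matched no probe accession and was not analysed here. Of the 12 further globin genes looked up, 5 had a probe (HBG, HBE1, HBE2, HBE4 and NGB).

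The tissue was the semitendinosus, a hind-limb muscle of the thigh, taken from bulls aged 15 months, and total RNA had been prepared with Trizol. The marbled bulls were 4 Hereford bulls, a British beef breed, and 4 Holstein-Friesian bulls, a dairy breed, both called well marbled by the submitters. Each was set against 4 bulls of the lean Limousin beef breed. Every array held 1 marbled bull and 1 Limousin bull, and the same Limousin bull met a Hereford bull in Cy5 on 1 slide and a Holstein-Friesian bull in Cy3 on the other, so Limousin itself was read in Cy3 beside Hereford and in Cy5 beside Holstein-Friesian.

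The median net signal over all probes, in intensity units above local background, was 97 to 139 in Hereford in Cy5 and 30.5 to 46.5 in Holstein-Friesian in Cy3. It was 96.5 to 118 in Limousin in Cy5 and 63 to 88 in Limousin in Cy3. No spot was saturated (0 on any array). The number of arrays, 4 a breed, limits the precision of each mean. All 7 measured slow-twitch and all 9 measured fast-twitch contractile genes were above background in every reading. So were 12961 of the 17061 probes kept for testing, so this does not test the muscle label.

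Globins are small proteins that hold oxygen on a haem group. Myoglobin stores oxygen inside muscle fibres, is most abundant in slow, oxidative fibres and gives beef its red colour. The alpha and beta chains form the haemoglobin of red blood cells, so their transcripts in a muscle extract mainly come from immature red cells in the blood the tissue still holds, while cytoglobin is found in fibroblast-like cells and pericytes.

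MB was lower in Holstein-Friesian than in Limousin muscle on all 4 arrays within the array, and its difference between Hereford and Limousin did not pass the test. Each value below is the log2 of marbled breed over Limousin on 1 array, after background correction and a brightness-dependent (loess) normalization. A gene is said to be called, or to rise or fall, where its Benjamini-Hochberg adjusted p in limma was under 0.05 over the 17061 probes kept as above background. The MB log2 ratio was 0.43, 0.38, 0.93 and -0.11 in Hereford over Limousin for bulls 1 to 4. In Holstein-Friesian over Limousin it was -0.73, -1.26, -0.71 and -1.39. The 2 sets of ratios did not overlap, but they were read with opposite dyes. The share of all probes that separate in this way was not counted. Among the 73 brightest kept probes (log2 level 16 or more), which include MB, the median ratio was 0.27 in Hereford and -0.23 in Holstein-Friesian.

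**Figure D1:**
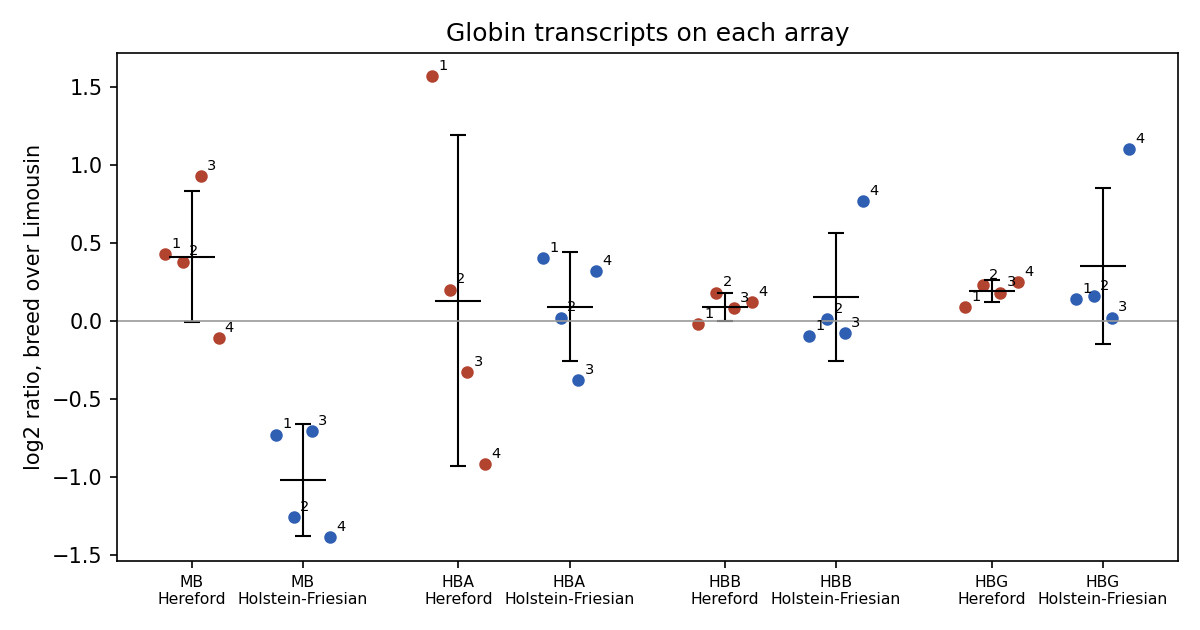
Log2 ratio of breed over Limousin (y axis) for MB, HBA, HBB and HBG on each array, Hereford in red and Holstein-Friesian in blue, with the Limousin bull number beside each point. Horizontal lines are means and bars the SD over 4 arrays. The MB points run from -0.11 to 0.93 in Hereford and from -1.39 to -0.71 in Holstein-Friesian. The HBA points of Hereford spread from -0.92 to 1.57, and Holstein-Friesian bull 4 stands above the other 3 in HBB and HBG.

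Averaged over 4 arrays, MB had a log2 ratio of 0.41 ± 0.42 in Hereford (SD, n = 4; 95% interval 0.01 to 0.81), which missed the threshold in limma over all probes (adjusted p = 0.201; 3 of 4 arrays higher). In Holstein-Friesian the mean was -1.02 ± 0.36 (SD, n = 4; interval -1.43 to -0.62), a level 0.492 times that of Limousin, and it passed (limma, adjusted p = 0.0167). MB was the single member of 3 called in either breed, against 6.45% of 17061 probes called in Holstein-Friesian and 7.14% in Hereford. Without bull number 2 or 4, the Holstein-Friesian mean was -0.94 or -0.90 with limma adjusted p values of 0.115 and 0.0672. In these fits 78 and 127 of 17061 probes were called.

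Averaged over the marbled breeds within each Limousin bull, which cancels a dye effect shared by the slides, MB stood at -0.31 ± 0.37 (SD, n = 4), between -0.75 and 0.11, and was not called (limma, adjusted p = 0.354; 0.598% of probes called). Hereford minus Holstein-Friesian was 1.43 ± 0.25 on the log2 scale (SD over 4 bull numbers; interval 0.86 to 2.00), a 2.7-fold difference that was called (limma, adjusted p = 0.0341; 2.71% of probes called). The SD is that of differences paired by Limousin bull, whereas the interval and test leave the pairing out. With that bull as a block the interval was 1.00 to 1.87 (limma, adjusted p = 0.00815). All 4 bull numbers gave a positive difference, between 1.16 and 1.65. Without any one bull number the difference was 1.36 to 1.52 and its limma adjusted p rose to 0.0576 to 0.19, so every such call was lost. Over all 17061 probes these fits called 457, 0, 24 and 0 without bull number 1, 2, 3 or 4. Without bull number 2 or 4 no gene could thus keep a call, and its loss there says nothing particular to MB.

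MB read brighter in Cy5 than in Cy3 in every Limousin bull. Within an array, the Limousin bulls were read in Cy3 beside Hereford and in Cy5 beside Holstein-Friesian, so dye, slide and breed cannot be told apart in the difference above. The excess of Cy5 over Cy3 was 0.35, 0.44, 0.83 and 0.24 on the log2 scale, a mean of 0.47 ± 0.26 (SD, n = 4), which missed the threshold (limma, adjusted p = 0.0586; 4.4% of probes called). Among the 73 kept probes of log2 level 16 or more, which include MB, 84.9% were brighter in Cy5 in Limousin and the median was 0.25. In the band from 12 to 14, which holds HBA, the median over 982 probes was 0.03.

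The normalization moved MB by more than the ratio left after it on all 8 arrays. Before normalization the MB log2 ratio was 1.15, 1.24, 2.24 and 0.81 in Hereford and -1.58, -2.93, -3.15 and -2.87 in Holstein-Friesian. The loess curve took 0.72 to 1.32 off the Hereford ratios and added 0.85 to 2.44 to the Holstein-Friesian ratios. MB lies at the far bright end of the curve, with 4 to 45 of 42990 spots on an array at least as bright. Its highest spot signal was 63.9% of the lowest saturation value, and the 2 spots of an array differed by 0.01 to 0.09.

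**Figure D2:**
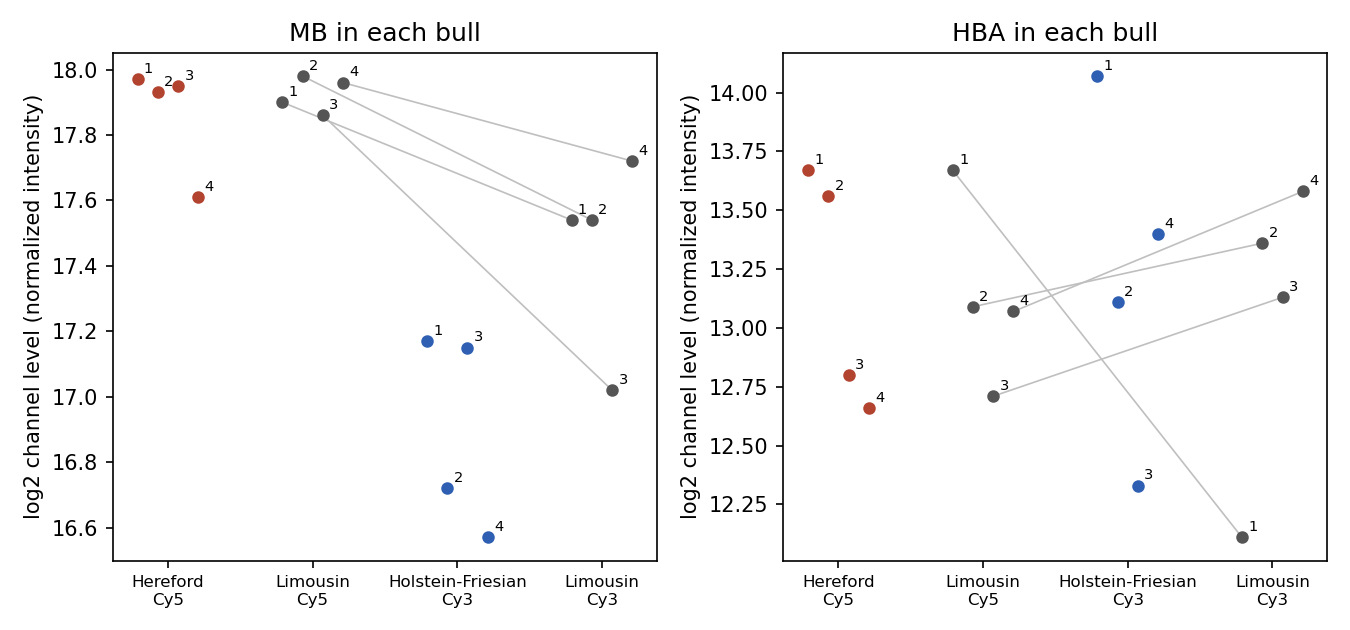
Log2 channel level (normalized intensity, y axis) of MB on the left and HBA on the right for every bull and dye, with grey lines joining the 2 readings of the same Limousin bull. MB in Limousin is higher in Cy5 than in Cy3 in 4 of 4 bulls, while HBA in Limousin bull 1 is 1.57 higher in Cy5 and lower in Cy5 in the other 3.

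Read in the same dye across slides, the contrast shrank. The Hereford bulls in Cy5 had MB log2 levels of 17.97, 17.93, 17.95 and 17.61, against 17.90, 17.98, 17.86 and 17.96 in Limousin in Cy5. The ranges overlapped, and the mean same-dye ratio was -0.06 (interval -0.48 to 0.36, limma adjusted p = 0.896; 4% of probes called). The Holstein-Friesian bulls in Cy3 had 17.17, 16.72, 17.15 and 16.57, against 17.54, 17.54, 17.02 and 17.72 in Limousin in Cy3. Holstein-Friesian was lower in 3 of 4 pairs, by 0.38, 0.83 and 1.15, and 0.12 higher in pair 3.

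That mean, -0.56 (interval -0.98 to -0.14), did not pass (limma, adjusted p = 0.115; 5.96% of probes called). The same-dye difference between the breeds was 0.50 (interval -0.10 to 1.10, limma adjusted p = 0.322; 1.35% of probes called). The interval of the Hereford ratio excludes neither 0 nor a 0.48 fall on the log2 scale, so it does not show equal levels.

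**Figure D3:**
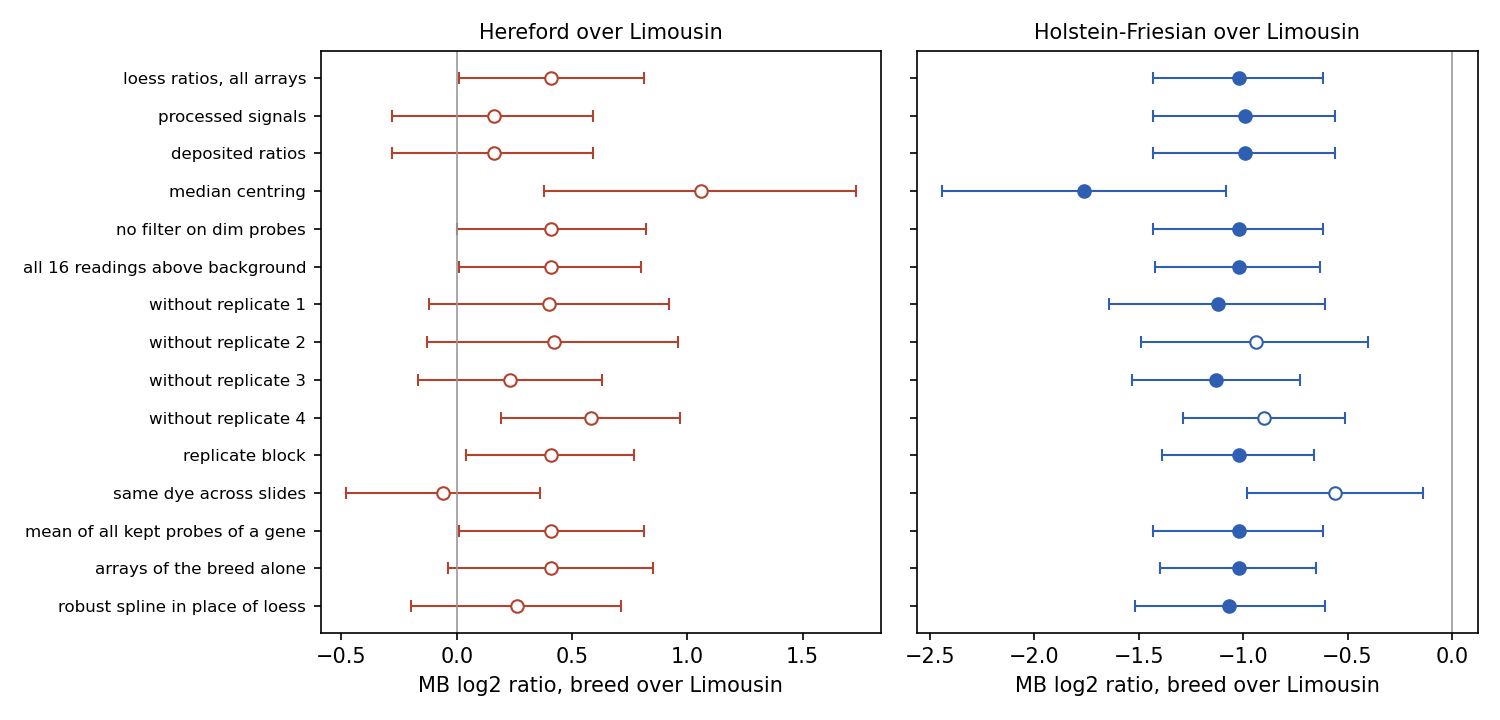
MB log2 ratio of breed over Limousin (x axis) under each way of processing, with 95% intervals, Hereford and Holstein-Friesian in panels of their own. Filled points passed at an adjusted p under 0.05. Holstein-Friesian stays below 0 throughout, from -1.76 with median centring to -0.56 in the same dye, and Hereford runs from -0.06 to 1.06.

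HBA, meant to report blood in the tissue, was not called in either breed, and whether it tracked blood content was not tested. Its log2 ratio was 1.57, 0.20, -0.33 and -0.92 in Hereford and 0.40, 0.02, -0.38 and 0.32 in Holstein-Friesian, so both groups spanned 0 and overlapped. In Hereford over Limousin the mean was 0.13 ± 1.06 (SD, n = 4; interval -0.66 to 0.92, limma adjusted p = 0.874), and in Holstein-Friesian over Limousin 0.09 ± 0.35 (SD, n = 4; interval -0.70 to 0.88, limma adjusted p = 0.909). Without bull number 1 the Hereford mean was -0.35. Over the marbled breeds together HBA had 0.11 ± 0.62, and Hereford minus Holstein-Friesian was 0.04 ± 0.99 (SD, n = 4), neither called by limma (adjusted p = 0.886 and 0.976).

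The channel levels show where that spread lies. The HBA log2 level was 13.67, 13.56, 12.80 and 12.66 in Hereford in Cy5 and 14.07, 13.11, 12.33 and 13.40 in Holstein-Friesian in Cy3. Limousin gave 13.67, 13.09, 12.71 and 13.07 in Cy5 and 12.11, 13.36, 13.13 and 13.58 in Cy3. In Limousin bull 1 the 2 readings differed by 1.57, whereas bulls 2 to 4 were 0.27 to 0.51 lower in Cy5. Only 0.317% of probes differed by as much between the readings of bull 1. Over all probes, 1.34% of that bull differed by more than 1 on the log2 scale, against 0.106% to 0.117% in the other 3 bulls.

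The replicate 1 values of HBA use these readings of Limousin bull 1. In the same dye, Holstein-Friesian bull 1 stood 1.97 above Limousin bull 1, against 0.40 within the array. Fewer red cells and less RNA per cell cannot be told apart in such bulk extracts. HBA is matched here to the gene of that name. It neighbours HBZ, HBM, HBA1 and HBQ1, and whether the probe also binds HBA1 was not tested.

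HBB, the other chain meant to report blood, was read by a probe that lay near background. Its net signal was 14.8 to 38.5 in Hereford in Cy5 and 3.5 to 41.8 in Holstein-Friesian in Cy3, against 18.5 to 25.2 in Limousin in Cy5 and 20.2 to 25.0 in Limousin in Cy3. It was above background in 10 of 16 readings, with 3 of 4 in Hereford, 1 of 4 in Holstein-Friesian, 4 of 4 in Limousin in Cy5 and 2 of 4 in Limousin in Cy3.

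Both channels of HBB were above background on 3 of 8 arrays (Hereford bulls 2 and 4 and Holstein-Friesian bull 4), so the ratios of the other 5 rest on at least 1 channel without a measured level. The HBB log2 ratio was -0.02, 0.18, 0.08 and 0.12 in Hereford and -0.10, 0.01, -0.08 and 0.77 in Holstein-Friesian. Holstein-Friesian bull 4, the single bull of that breed above background, stood farthest from 0. The means were 0.09 ± 0.09 in Hereford over Limousin and 0.15 ± 0.41 in Holstein-Friesian over Limousin (SD, n = 4, limma adjusted p = 0.762 and 0.565). Without bull 4 the Holstein-Friesian mean was -0.06. Over the marbled breeds together HBB had 0.12 ± 0.23, and Hereford minus Holstein-Friesian was -0.06 ± 0.39 (SD, n = 4), neither called by limma (adjusted p = 0.603 and 0.895).

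HBG, a beta-type globin of fetal life that lies in the cluster HBE1, HBE4, HBB, HBE2, HBG, was above background in all 16 readings. Its log2 ratio was 0.09, 0.23, 0.18 and 0.25 in Hereford and 0.14, 0.16, 0.02 and 1.10 in Holstein-Friesian, again highest in Holstein-Friesian bull 4. It was higher on all 8 arrays, yet not called: 0.19 ± 0.07 in Hereford and 0.35 ± 0.50 in Holstein-Friesian (SD, n = 4, limma adjusted p = 0.547 and 0.229). HBG and HBB had a Pearson correlation of 0.978 over 8 arrays, of which 5 lack a measured HBB level in 1 or both channels, so no shared pattern is read from it. Holstein-Friesian bull 4 had an HBA ratio of 0.32, within the range of the other bulls. Whether these probes bind one another's transcripts was not tested.

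**Figure D4:**
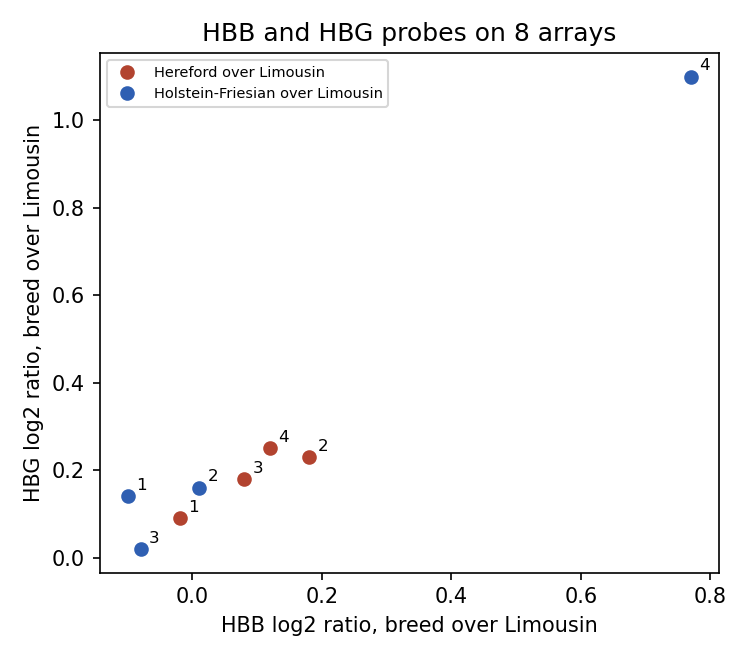
Log2 ratio of breed over Limousin of HBB (x axis) and HBG (y axis) on 8 arrays, Hereford in red and Holstein-Friesian in blue. 7 arrays lie between -0.10 and 0.18 in HBB and between 0.02 and 0.25 in HBG, and Holstein-Friesian bull 4 lies at 0.77 and 1.10.

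Of the embryonic genes, HBE2 and HBE4 were above background in 2 and 1 of 16 readings and were not tested. HBE1 was above background in 0 of 4 Holstein-Friesian readings, where it has only a bound, and 4 of 4 in Hereford. In Hereford its log2 ratio was -0.03 ± 0.12 (SD, n = 4, limma adjusted p = 0.842). NGB, the neuroglobin of nerve cells, was 0.08 ± 0.33 in Hereford and -0.05 ± 0.13 in Holstein-Friesian, neither called by limma (adjusted p = 0.762 and 0.833). The globin genes beyond the 4 listed thus gave 0 calls in limma among 3 kept, and 0 had an unadjusted p under 0.05 in either breed.

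Slow-twitch contractile genes, the class of fibre richest in myoglobin, rose in part in the marbled breeds. Of 7 kept slow-twitch contractile genes, 4 rose in Hereford (ATP2A2, MYL3, MYL2 and MYH7; 3.39% of all probes were called higher), with a list median of 1.37 against 0.01 over all probes. With the Limousin bull as a block, MYL2 and MYH7 lost these calls (limma, adjusted p = 0.0569 and 0.0714), and MYL2 also lost it in the same dye (0.98, limma adjusted p = 0.0537). In Holstein-Friesian 1 rose, ATP2A2, the calcium pump of slow fibres (1.02, limma adjusted p = 0.0259; 3% of probes called higher), and the list median was 0.88 against -0.01. In each breed all 7 were above 0, and 6 had an unadjusted p under 0.05 in limma. Over all 17061 probes, 4122 in Hereford and 4011 in Holstein-Friesian had such a p. Hereford minus Holstein-Friesian gave 0 calls among the 7, with a list median of 0.49, and -0.28 in the same dye. The mean MB log2 ratio was 0.41 in Hereford and -1.02 in Holstein-Friesian, below the median of the slow-twitch genes in each, and the difference between MB and these genes was not tested. Over the marbled breeds together ATP2A2 (1.31) and MYH7 (1.12), the slow myosin heavy chain, were called (limma, adjusted p = 0.0458 for each, 0.598% of probes called), and with the block MYH7 lost its call (limma, adjusted p = 0.0526). The slow-twitch median stayed positive in the same dye, 0.98 in Hereford and 1.26 in Holstein-Friesian.

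**Figure D5:**
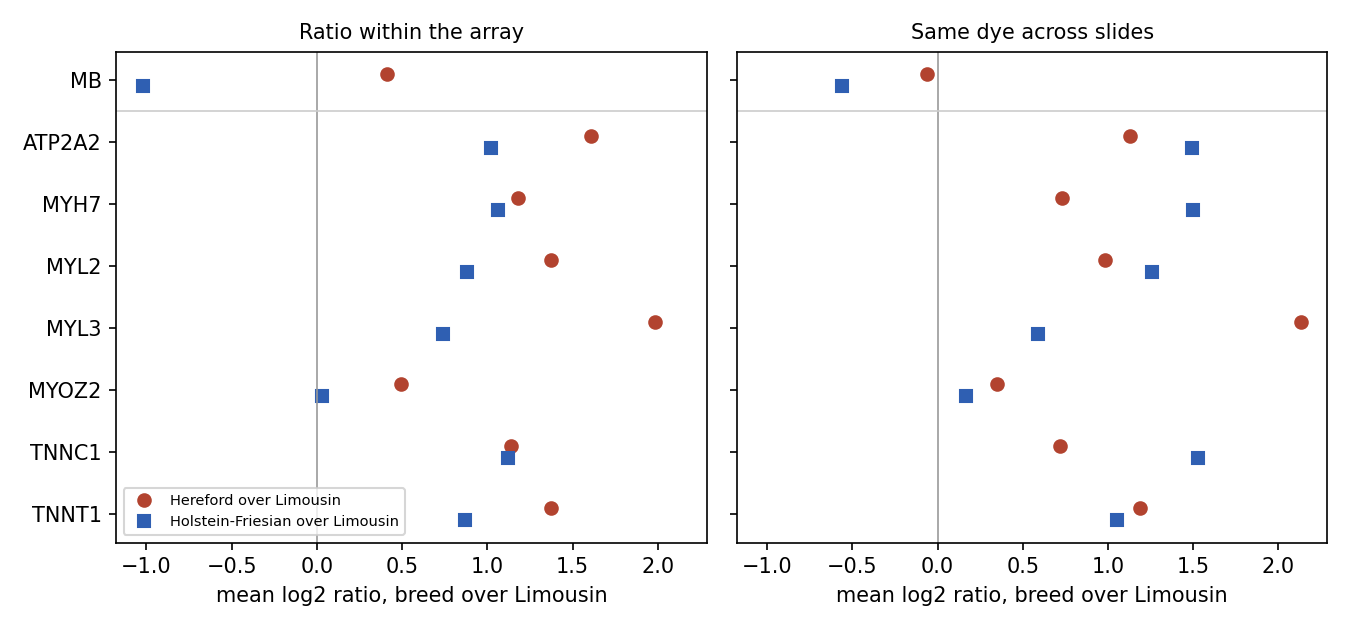
Mean log2 ratio of breed over Limousin (x axis) for MB and the 7 measured slow-twitch genes, Hereford as red circles and Holstein-Friesian as blue squares, within the array on the left and in the same dye on the right. MB lies below every slow-twitch gene in both breeds and both panels.

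Of 9 kept fast-twitch genes, 0 were called in Hereford by limma (3 at an unadjusted p under 0.05) and 2 fell in Holstein-Friesian: PVALB, a calcium buffer of fast fibres (-1.90, limma adjusted p = 0.0111; 3.45% of probes called lower), and TNNC2, a fast troponin (-0.68, limma adjusted p = 0.0187). PVALB kept its call in the same dye (-2.25, limma adjusted p = 0.00639) and TNNC2 did not (-0.11, limma adjusted p = 0.479). The fast-twitch median was 0.29 in Hereford and -0.48 in Holstein-Friesian within the array, against -0.09 and -0.04 in the same dye.

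Of 12 kept regulators of oxidative fibre genes, 3 were called in Hereford, against 7.14% of all probes. PPARGC1A, a coactivator that raises oxidative fibre genes in mice, rose (1.53 ± 0.76, SD, n = 4, limma adjusted p = 0.0353) and again in the same dye (1.48, limma adjusted p = 0.0281). NFATC1, a calcium-responsive factor, fell (-0.63, limma adjusted p = 0.00809; 3.75% of probes called lower), and PPARD, a fatty acid receptor, fell (-0.36, limma adjusted p = 0.0272) but stood at 0.14 in the same dye. In Holstein-Friesian RCAN1, an inhibitor of calcineurin, rose (1.62, limma adjusted p = 0.0258, with 3% of probes called higher) and PPP3CB, a calcineurin subunit, fell (-0.55, limma adjusted p = 0.0386, with 3.45% called lower). In the same dye RCAN1 was called (1.95, limma adjusted p = 0.0163) and PPP3CB was not (-0.53, limma adjusted p = 0.0577).

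Haem, the shared group of all globins, is made and broken down by other enzymes. Of 7 kept haem synthesis genes, SLC25A38, a mitochondrial glycine carrier, fell in Hereford (-0.40, limma adjusted p = 0.0364, with 3.75% of probes called lower). In the same dye it stood at -0.32 and was not called (limma, adjusted p = 0.0798).

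Of 14 kept genes of haem breakdown and iron, 1 rose in Holstein-Friesian, against 3% of probes called higher. This was HMOX2, a haem oxygenase that splits haem (0.92, limma adjusted p = 0.00288). Its log2 ratio was -0.38, -0.34, -0.18 and -0.08 in Hereford and 1.07, 0.99, 0.67 and 0.96 in Holstein-Friesian. Hereford minus Holstein-Friesian was -1.17 (limma, adjusted p = 0.0091; 2.71% of probes called) and -0.96 in the same dye (limma, adjusted p = 0.0243; 1.35% of probes called). The 4 kept cytochrome b5 genes, which reduce globin iron, gave 0 calls in limma in either breed, and 0 had an unadjusted p under 0.05.

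Of 13 kept oxygen-sensing and hypoxia genes, P4HA1, a collagen prolyl hydroxylase, rose in Hereford (0.55, limma adjusted p = 0.0248, with 3.39% of probes called higher). In Holstein-Friesian 3 rose, against 3% of probes called higher: SLC2A1, a glucose transporter (0.93, limma adjusted p = 0.0105), EGLN3, an oxygen sensor (0.50, limma adjusted p = 0.0114), and P4HA1 (0.53, limma adjusted p = 0.0282). In the same dye P4HA1 in Hereford (0.63, limma adjusted p = 0.0371) and SLC2A1 in Holstein-Friesian (0.99, limma adjusted p = 0.0147) were called. EGLN3 (0.47, limma adjusted p = 0.0708) and P4HA1 (0.44, limma adjusted p = 0.0743) in Holstein-Friesian were not.

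Of 27 listed red cell genes, 12 had a probe and 9 were kept, and 0 of 9 were called by limma in any comparison (1 at an unadjusted p under 0.05 in Holstein-Friesian and 0 in Hereford). A further 3 (RHAG, SLC4A1 and ALAS2, the erythroid enzyme of haem synthesis) were not kept, being above background in too few readings. The list median was 0.04 in Hereford and 0.03 in Holstein-Friesian. AHSP, the chaperone of alpha globin, had -0.19 in Holstein-Friesian (limma, adjusted p = 0.269). Of 9 kept leukocyte and platelet genes, CD3E, a T cell receptor chain, rose in Holstein-Friesian (0.52, limma adjusted p = 0.0448), against 3% of probes called higher. In the same dye CD3E was not called (0.38, limma adjusted p = 0.102). In that list 3 of 9 had an unadjusted p under 0.05 in Holstein-Friesian, against 4011 of 17061 over all probes. CD14, a monocyte receptor, was at 0.49 and S100A8, a neutrophil protein, at 0.56, neither called (limma, adjusted p = 0.0514 and 0.0579). Of the endothelial genes, 0 of 10 were called by limma in either breed (1 at an unadjusted p under 0.05 in Hereford and 0 in Holstein-Friesian). The part of blood content in the values above was not tested.

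Cytoglobin's usual cells were read through 10 kept fibroblast and pericyte genes. In Hereford 2 rose: RGS5, a pericyte marker (0.77, limma adjusted p = 0.00816), and ANGPT1, a vessel growth factor (1.20, limma adjusted p = 0.0184), against 3.39% of probes called higher. The list median was 0.13 in Hereford, and PDGFRA, a fibroblast receptor, stood at -0.47, uncalled (limma, adjusted p = 0.209). In Holstein-Friesian COL3A1, a fibrillar collagen, fell (-2.53 ± 1.14, SD, n = 4, limma adjusted p = 0.0125), against 3.45% of probes called lower. Its ratio was -4.23 in bull 3 and -2.14 to -1.75 in the other 3. COL3A1 was called in the same dye too (-2.56, limma adjusted p = 0.012). The list median in Holstein-Friesian was -0.05, and 5 of the 10 genes stood above 0, PDGFRA (0.27) and RGS5 (0.23) among them. Of the 31 calls made on genes other than globins over the 4 comparisons, 1 (HMOX2 in Holstein-Friesian) held in limma without each bull number in turn, and the others were lost without at least 1 of them. Without bull number 1, 2, 3 or 4 the marbled fits called 0, 0, 1 and 0 of 17061 probes. The difference fits called 457, 0, 24 and 0, so no call could hold throughout in either comparison. Such fits called 30 to 1055 probes in Hereford and 78 to 810 in Holstein-Friesian.

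The named genes most like each member over 8 arrays were ranked by Pearson correlation of log2 ratios among 6692 genes, a description that rests on few arrays and the same Limousin bulls. For MB they were TK1 (0.984), WASF1, SYNJ2BP, DIPK2B and STMN4 (0.965). For HBA they were NKX2-8 (0.997), CABP2, IL2RG, SSR4 and DCT (0.989). For HBB they were HBG (0.978), PAG10, NEURL2, INA and GIN1 (0.886), over arrays that mostly lack a measured HBB level, and without Holstein-Friesian bull 4 the last 3 gave 0.455, 0.577 and 0.454.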

How the data were processed

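Total RNA of 12 bulls was measured on 8 Agilent 2-colour arrays. The scanner software was Agilent Feature Extraction 10.7.3.1, as given in the submitters' processing notes. The deposited scanner output gave median spot and background intensity per channel, per the file headers, together with flags for spots above background, saturated or outlying. The value table deposited by the authors is on a log10 scale, Cy5 relative to Cy3, and matched the scanner's log ratio at 44407 of 44407 spots; 0 of its value columns had no sample. Log2 values were computed here from the deposited intensity.

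The software was limma 3.58.1 under R 4.3.3, with jsonlite 2.0.0, statmod 1.5.0 and the data.table package, version 1.17.8, and matplotlib 3.10.9 for plots. Background was corrected with normexp (offset 50) and arrays were normalized with loess (span 0.3, control spots without weight). Each ratio was then expressed as marbled breed relative to Limousin. Channel levels were scaled between arrays with Aquantile. Outlier spots were left out and spots of a probe averaged. Of 21475 probes, 17061 were kept, those well above background in 4 or more of 16 channel readings (for a reading, in a share of 0.5 or more of its spots). Gene symbols came from RefSeq, assembly ARS-UCD2.0, without its coordinates, and named 8297 probes.

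lmFit and eBayes were run over all 8 arrays, and over 4 bull means for the marbled breeds together, as two-sided tests. The fits over 8 arrays had no block for the Limousin bull unless stated. The SD of a difference between the marbled breeds was taken over bull numbers. P-values were adjusted by Benjamini-Hochberg over all kept probes, and 0.05 was the threshold. Scripts were tested on simulated data. Source names in the labels show that a replicate number stands for 1 Limousin bull across slides, which pairs the arrays; the Cy3 and Cy5 levels of a bull correlated at 0.401 to 0.876 over 12961 probes, and at -0.0235 or less with another bull. Replicates are separate bulls, per the labels. Genes named in the text were the members, every called gene of a list in the comparison described (up to 4, by smallest p) or else the 2 of smallest p, and the 5 genes most correlated with each member; values of further named genes were chosen after they were seen. Some genes chosen by this rule are left out here. The members and the 12 gene lists (187 genes, 107 kept) were chosen with earlier results of these data known. Alternatives covered background, ratio source, normalization, filters, left-out bulls, block, dye, probe choice and arrays sharing the spread.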

Additional observations from a re-analysis of the deposited data

Results flagged for a closer look

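Among 68 groups of 4 values examined, 9 held a sample far from the other 3, where chance gives about 1 in 20. MB in Hereford bull 4 was at a log2 level of 17.61, against 17.93 to 17.97 in the other 3. HBB in Holstein-Friesian bull 4 had a log2 ratio of 0.77 (the others -0.10 to 0.01) and a level of 7.0 (6.16 to 6.29). HBG in the same bull had a ratio of 1.10 (0.02 to 0.16) and a level of 7.96 (6.89 to 6.95), and in the mean over both marbled breeds bull number 4 stood at 0.67 (0.10 to 0.19). HBB in Hereford bull 1 was at a level of 6.17 (6.39 to 6.41), and HBE1 in Limousin bull 2 in Cy3 at 6.52 (6.29 to 6.30). COL3A1 in Holstein-Friesian bull 3 had a ratio of -4.23 (-2.14 to -1.75).

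The test of the difference between the breeds passed for MB and, among all kept genes of the gene lists, for 5. Over all kept probes it passed for 463 of 17061 (2.71%). Whether the listed genes exceed that share was not tested. MB in Hereford minus Holstein-Friesian was 1.43 (limma, adjusted p = 0.0341), and 0.50 in the same dye. HMOX2 was -1.17 (limma, adjusted p = 0.0091), TNNC2 1.16 (limma, adjusted p = 0.0231), PPP3R1 0.98 (limma, adjusted p = 0.0357), LDHA 1.23 (limma, adjusted p = 0.0404) and SLC2A1 -0.91 (limma, adjusted p = 0.0482). PPARD, at -0.45, lay below 0 on every Hereford array and between 0.00 and 0.26 on the Holstein-Friesian arrays, and its difference did not pass (limma, adjusted p = 0.0597). These PPARD ratios were read with opposite dyes, and the share of all probes that separate in this way was not counted. In the same dye HMOX2 kept its call (-0.96, limma adjusted p = 0.0243), while TNNC2 was at 0.02, PPP3R1 at 0.52, LDHA at 0.51, SLC2A1 at -1.04 and PPARD at 0.55, none called.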

How the results depend on the processing

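MB in Holstein-Friesian kept its direction under every alternative run, and its call except in the same dye (-0.56, adjusted p = 0.115) and without bull 2 or bull 4 (-1.13 to -0.90 with any 1 bull left out). Hereford minus Holstein-Friesian lost its call in the same dye (0.50), with a robust spline (1.32, adjusted p = 0.051, an alternative chosen after seeing the data) and without each bull (1.36 to 1.52; limma adjusted p over all alternatives 0.00815 to 0.322). MB in Hereford turned to -0.06 in the same dye. Median centring gave MB 1.06 in Hereford, -1.76 in Holstein-Friesian and 2.82 for the difference, with all-probe medians of 0.10, -0.20 and 0.36. HBB turned to -0.01 in Hereford and rose to 0.46 in Holstein-Friesian (adjusted p = 0.0426) with median centring; its difference turned to 0.24 with processed or deposited signals. Leaving out a bull gave HBB -0.06 to 0.23 in Holstein-Friesian and -0.14 to 0.13 for the difference. HBA turned to -0.54 in Holstein-Friesian and -0.04 in the marbled breeds with median centring, and to -0.15 for the difference in the same dye; median centring put the difference at 1.00 (interval -0.15 to 2.15). Leaving out a bull gave HBA -0.35 to 0.48 in Hereford, -0.01 to 0.25 in Holstein-Friesian, -0.18 to 0.27 in the marbled breeds and -0.34 to 0.46 for the difference. PPARD in Hereford turned to 0.14 in the same dye. The cause of these changes was not tested. With the Limousin bull as a replicate block, MB stood at 0.41 in Hereford, -1.02 in Holstein-Friesian (adjusted p = 0.0137) and 1.43 for the difference (adjusted p = 0.00815), and no call on MB, HBA or HBB changed; over all probes the block moved the calls to 910 from 102 in the marbled breeds and to 1714 from 463 for the difference. Of 31 called results on other genes, 1 (HMOX2 in Holstein-Friesian) kept its call without each bull in turn, 19 in the same dye and 28 with the block (those lost were MYL2 and MYH7 in Hereford and MYH7 in the marbled breeds). Counts of called probes also moved, against 1218 in Hereford, 1100 in Holstein-Friesian, 102 in the marbled breeds and 463 for the difference: to 315, 6678, 950 and 6219 with median centring, and to 27 with the Hereford arrays alone. Processed signals gave 2157, 444 and 974 in the last 3 and deposited ratios 2129, 438 and 979. Same-dye reading gave 683 in Hereford and 231 for the difference, readings all above background 371 and no filter 42 in the marbled breeds. Without bull 1, 2, 3 or 4 the calls were 1055, 45, 352 and 30 in Hereford, 810, 78, 275 and 127 in Holstein-Friesian, 0, 0, 1 and 0 in the marbled breeds and 457, 0, 24 and 0 for the difference; at an unadjusted p under 0.05 limma gave 2339 to 3340 in those marbled fits and 2217 and 2366 in the difference fits with 0 calls. Median centring moved the share of calls that were higher to 87% from 47.5% in Hereford and to 29% from 46.5% in Holstein-Friesian. Signal over background limits HBB and HBE1.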

Other observations

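In Limousin bull 1, whose HBA level was 1.57 higher in Cy5 than in Cy3 on the log2 scale, 2 genes of the lists, picked after their values were seen, also differed between the readings. DMTN, a protein of the red cell membrane skeleton, was 1.88 higher in Cy5, against -0.21 to 0.13 in bulls 2 to 4. HPX, a haem-binding plasma protein, was 1.29 higher, against -0.18 to -0.01. AHSP, the chaperone of alpha globin, was 0.21 higher, against -0.04 to 0.04, and HBB was 0.09 higher. MYL2, a slow-twitch light chain, ran the other way, at -0.48 against 0.60 to 0.75. The cause was not tested.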
